A study of Daphnia magna with 24 samples.

Results

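The comparison described here set Daphnia magna kept in field water from upstream of Walker Mine against control animals that stayed in COMBO, a freshwater medium of known composition. Its members were the 6 arrays whose titles name the upstream site, out of 24 arrays in the series. They form 3 exposures with 2 arrays each. On the first array of an exposure the animals from field water carried the Cy5 dye, and on the second they carried Cy3. The value of an exposure was the mean of its 2 arrays, and a feature needed a value on both. The other 18 arrays held, in the same layout, animals from water downstream of the mine portal, from water downstream of the tailings, and from Little Grizzly Creek.

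All animals came from 1 genetically homogeneous purchased stock that was raised in COMBO adjusted for water hardness. Adult females aged 14 to 16 days spent 24 h in the water at 23.5 °C, and 10 to 15 whole animals were pooled for an exposure. Control animals had no field water. The labels do not say whether 1 pool of control RNA served several exposures or sites. RNA came from whole pooled animals, so fewer cells of a type and less RNA per cell cannot be told apart.

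Daphnia magna is a small filter-feeding crustacean of ponds and lakes that reproduces mostly by cloning, which makes it a standard animal for testing water quality. Copper is an essential metal for it and toxic in excess, and animals bind surplus copper with metallothioneins. Per the design text, each site carried a different copper load, and no concentrations are stated. Water from upstream of the mine also differs from COMBO in being natural water, so the comparison asks what a day in that field water does to expression relative to culture medium.

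The deposited table holds 7680 features under identifiers such as P4DB6. None of them matched a name in the RefSeq gene table of 28335 genes used here, and the files do not pair them with genes or sequences. Features are therefore described by their values and by the form of their identifiers. Identifiers come in 2 forms. In one, 2688 features begin with A and a number from 1 to 7, and in the other, 4992 begin with P and a number from 1 to 13. The labels do not say what the forms stand for.

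Values are read as log2 ratios, although the deposited base is not stated, and a positive value likely means higher in field-water animals. The 2 arrays of an exposure, which carry opposite dyes, correlated across features at 0.714, 0.714 and 0.839 in exposures 1, 2 and 3, so both already pointed the same way. Exposure 2 stood apart from the others before any test. Of the 6 pairs of upstream arrays that share a dye orientation, 1 correlated below -0.3, at -0.353, and it joined the first arrays of exposures 2 and 3. By that measure the direction of exposure 2 is not settled. Results are given as deposited, and the main ones that rest on exposure 2 also with its sign turned.

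A value in all 3 upstream exposures was present for 5894 features, in 2 exposures for 1179, in 1 for 425 and in none for 182. Completeness differed by identifier form. All 3 values were present for 58.7% of A features and for 86.5% of P features. The gap was widest in exposure 3, where 31.3% of A and 7.99% of P features were blank.

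Most features lay close to 0 in upstream water. Over the 6504 features tested, the median absolute mean log ratio was 0.138, and 90% of features had a mean within 0.408 of 0. The median SD over exposures was 0.142, as large as the typical effect. A mean of at least 0.5 was reached by 90 features, and a mean of -0.5 or less by 369. At a size of 1 the means were nearly all on the lower side, with 134 features at -1 or less and 2 at 1 or more. None reached 2, while 17 were at -2 or less. With exposure 2 turned, 183 features were at -1 or less, 168 of A form, and 2 at 1 or more.

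These large means were mostly not shared by the exposures among A features, and less clearly so among P features. Of the 136 features with a mean of at least 1 in size, 90 had an SD over exposures larger than the mean itself. These were 83 of the 104 with A identifiers and 7 of the 32 with P identifiers. No feature of either form was past 1 in size with the same sign in all 3 exposures. With 3 values present, exposure 2 had the opposite sign to the mean in 86 of 104. A further 32 rested on 2 exposures, and in 20 of these exposure 2 was blank. An unadjusted p under 0.05 was reached by 47 of the 136, and an adjusted p under 0.05 by none. The 47 were 21 A and 26 P features.

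The test of the mean against 0 called 5 features, 0.0769% of those tested, all of them lower in upstream water. It used limma, with 1 mean per site and a pooled spread over all 4, and Benjamini-Hochberg adjustment over the 6504 features at a threshold of 0.05. No feature rose. At an unadjusted p under 0.05 there were 1083 features (16.7%), 509 higher (7.83%) and 574 lower (8.83%), with a median absolute mean of 0.281. The 5 calls had means from -0.791 to -0.475, and their adjusted p-values by limma ran from 0.014 to 0.0438. All 5 had P identifiers. The 30 array values behind them were all below 0, and their SD over exposures was between 0.0475 and 0.106.

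The call with the largest fall was P4DB6. Its log ratio was -0.436 and -0.902 on the arrays of exposure 1, -0.788 and -0.928 on those of exposure 2, and -0.813 and -0.881 on those of exposure 3. The first array of exposure 1 gave the shallowest value. The exposures stood at -0.669, -0.858 and -0.847, a mean of -0.791 ± 0.106 (SD, n = 3; adjusted p = 0.014 by limma), about 1.73-fold lower if the base is 2.

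P5CG5, the other named fall, stood at -0.401 and -0.798 in exposure 1, at -0.471 and -0.541 in exposure 2, and at -0.461 and -0.86 in exposure 3. Here the 2 arrays of exposures 1 and 3 differed more than the exposures did. The exposure values were -0.6, -0.506 and -0.66, and the mean was -0.589 ± 0.0777 (SD, n = 3; adjusted p = 0.0332 by limma), about 1.5-fold lower if the base is 2.

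No positive mean passed, so the 2 positive means with the smallest p are given as values. P7AA11 stood at 0.413 and 0.633 in exposure 1, at 0.384 and 0.503 in exposure 2, and at 0.667 and 0.673 in exposure 3, with a mean of 0.546 ± 0.115 (SD, n = 3; adjusted p = 0.0632 by limma). P2DH11 had exposures at 0.372, 0.487 and 0.535 and a mean of 0.464 ± 0.084 (SD, n = 3; adjusted p = 0.0632 by limma). All 6 arrays were above 0 for both features.

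The means of the named falls moved little when an exposure was left out. Without exposures 1, 2 and 3, the mean of P4DB6 was -0.853, -0.758 and -0.764, and that of P5CG5 was -0.583, -0.63 and -0.553. The test on fewer exposures called none. Without exposure 1, 2 or 3 the count was 0 each time, although 658, 1021 and 503 features had an unadjusted p under 0.05. It was also 0 with exposure 2 turned (295 unadjusted) and 0 when the 3 upstream exposures were fitted alone (1014 unadjusted), all by limma. In the fits without exposures 1, 2 and 3, P4DB6 had adjusted p-values by limma of 0.072, 0.13 and 0.288, and P5CG5 of 0.214, 0.148 and 0.298. With exposure 2 turned, the mean of P4DB6 was -0.219 (adjusted p = 0.894 by limma) and that of P5CG5 -0.251 (adjusted p = 0.884 by limma). The exposures of both features shared a sign, so the turn itself moves their means toward 0.

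Other ways of weighing the exposures gave more calls. With the exposure number as a replicate block over the 4 sites, 458 features passed, 173 higher and 285 lower. P7AA11 (adjusted p = 0.0251 by limma) and P2DH11 (adjusted p = 0.0263 by limma) were among them. This block pairs all 4 waters by exposure number, while elsewhere the numbers were taken to pair upstream and portal water only. Taking the number as a random effect left 2. With a weight estimated for each exposure by limma 635 passed, 342 higher and 293 lower, and after the exposures were given equal spread 116 passed, 66 higher and 50 lower. The 5 calls were among those of the block, the weights and the equal spread, and both features of the random effect were among the 5.

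**Figure D1:**
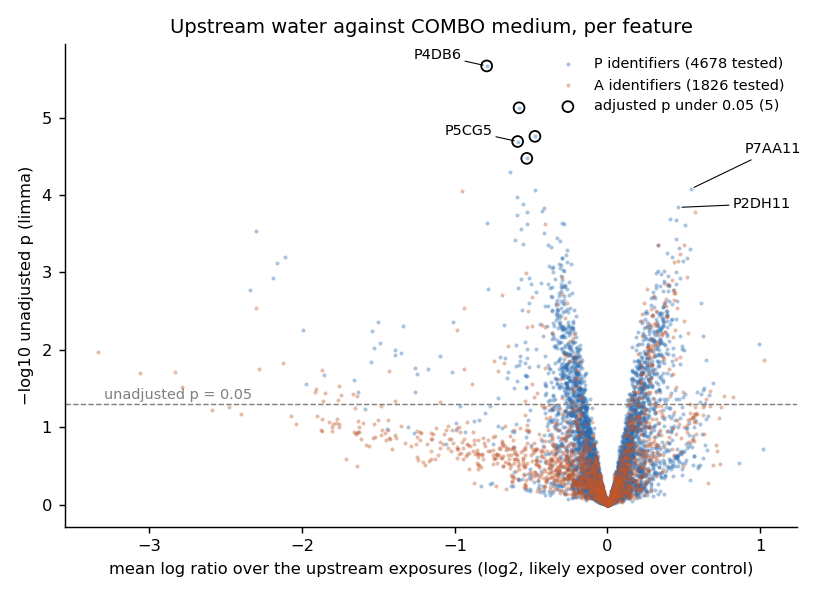
Mean log ratio over the upstream exposures (x axis, log2) against the −log10 of limma's unadjusted p (y axis) for 6504 features, coloured by identifier form. The 5 circled calls lie at means between -0.791 and -0.475, and the many A features with means of -1 or less lie mostly below the dashed line of the unadjusted threshold.

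The spread of log ratios differed between the exposures. Its SD was 0.544 in exposure 1, 0.282 in exposure 2 and 0.577 in exposure 3. Exposure 2 of portal water had a similarly small SD, 0.3, while that of tailings and creek water had 0.517 and 0.523. In upstream water a log ratio of at least 1 in size was reached by 417 features in exposure 1 (5.91%), by 60 in exposure 2 (0.861%) and by 381 in exposure 3 (5.92%). In exposures 1 and 3 most of these were lower, 320 and 308 features, against 97 and 73 higher. In exposure 2 they were balanced over both forms together, with 30 in each direction, but not within a form. There 24 A features were at 1 or more and 1 at -1 or less, while for P features the counts were 6 and 29. Exposure 2 was not noisier than the others by the absolute size of its dye-swap error. The median error of an exposure value, taken as the distance of either of its arrays from their mean, was 0.0969, 0.0626 and 0.0784 in exposures 1, 2 and 3. Relative to the variance of the exposure values, the variance of the signed error was 16.7%, 16.7% and 10%. Among A features it was 13.2%, 21.4% and 9.1%, highest in exposure 2, and among P features 20.2%, 16.6% and 15.7%.

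Much of the spread lay in the A features. Their SD was 0.746, 0.283 and 0.83 in exposures 1, 2 and 3, against 0.412, 0.258 and 0.362 for P features. In exposure 3, 283 A features were at -1 or less and 7 at 1 or more, while for P features the counts were 25 and 66. The median A feature stood at 0.00268, 0.0951 and -0.152 in exposures 1, 2 and 3. For P features the medians were 0.0216, -0.0648 and 0.0276. Exposure 2 therefore held 65.7% of A features above 0 but 36.2% of P features, and exposure 3 held 29.6% and 54.1%. Turning exposure 2 puts those above 0 below it.

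Whether exposure 2 went with the others also depended on the identifier form. Over the 5894 features with 3 values, exposures 1 and 3 correlated at 0.569, exposures 1 and 2 at -0.0957 and exposures 2 and 3 at -0.255. Spearman's rho was 0.48, 0.159 and 0.105 for the same pairs, positive in each. Among the 1577 A features the Pearson values were 0.825 for exposures 1 and 3, -0.51 for 1 and 2, and -0.48 for 2 and 3, and the rank correlations had the same signs, at 0.762, -0.346 and -0.336. Among the 4317 P features all 3 pairs were positive, at 0.145, 0.329 and 0.114. The split by identifier form was chosen after the values were seen. Correlations across features describe these arrays and carry no test, since features of one array share its RNA, dye and scan.

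The same division showed within the numbered sets of identifiers. Exposures 1 and 3 correlated positively in all 7 A sets, from 0.661 to 0.864, while exposures 2 and 3 correlated negatively in all 7, from -0.594 to -0.0624. Exposures 1 and 2 were negative in 6 of 7 A sets. In the 13 P sets, exposures 1 and 2 were positive in 12, from -0.00716 to 0.516, exposures 2 and 3 in 11, and exposures 1 and 3 in 9, from -0.0398 to 0.487. No turn of exposure 2 made both forms agree. As deposited, 48.5% of P and 26.6% of A features had the same sign in all 3 exposures. With exposure 2 turned, the shares were 18.3% and 45.1%.

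**Figure D2:**
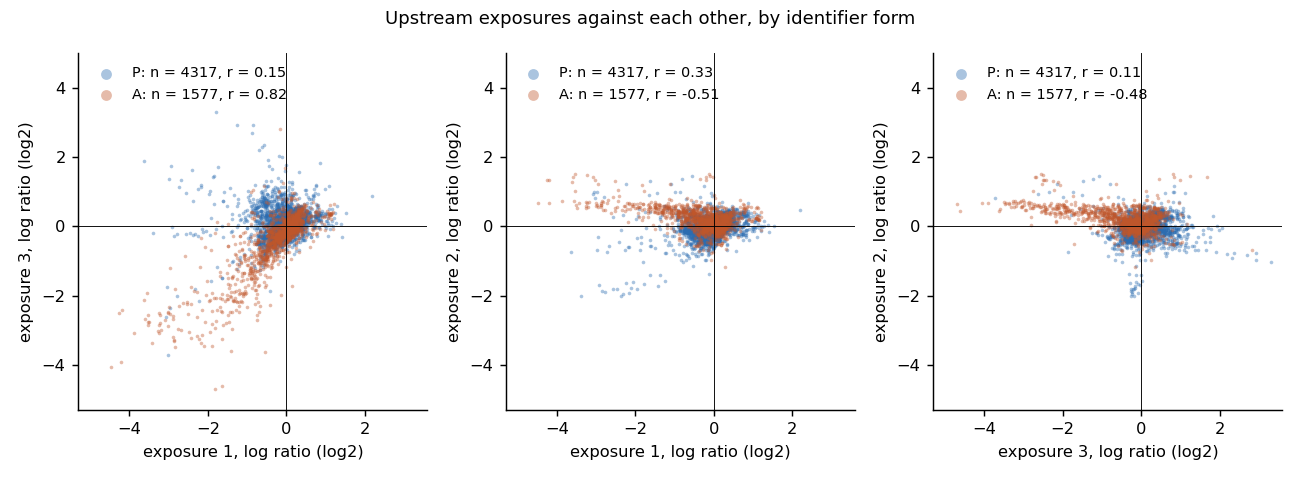
Log ratios (log2) of the upstream exposures against each other, 1 point per feature with a value in all 3 exposures, coloured by identifier form. A features spread along a line that falls from upper left to lower right where exposure 2 is on the y axis, and along a rising line for exposures 1 and 3.

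Choosing features on 2 exposures and reading them in the third shows how exposure 2 differed. In exposures 1 and 3 together, 161 features were lower by at least 1. Their medians were -1.69 and -2.16. In exposure 2, which was not used to choose them, 160 of the 161 were above 0 (99.4%), with a median of 0.561 and a range from -0.121 to 1.53. Among all 5894 features 44.7% were above 0 in exposure 2. Among A features with a value there, the form of most of the 161, the share was 65.7%. With exposure 2 turned, 0.621% of the 161 were above 0. Both arrays of exposure 2 showed it. The median of the 161 was 0.756 on the first array and 0.374 on the second, and 158 of them were above 0 on both.

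These 161 were 147 A and 14 P features, so A features made up 91.3% of them against 26.8% of all features with 3 values. The A7 set held 56 of them, 23.3% of its 240 features, and the A4 set held 41, 16.9% of its 242. In the 13 P sets the highest share was 1.16%. The size in exposure 2 was smaller than in the others. The ratio of exposure 2 to the mean of exposures 1 and 3 had a median of -0.269, and across the 161 the correlation of exposure 2 with that mean was -0.479. Just inside the threshold, the features with a smaller size of 1 to 1.01 had exposure 2 values of 0.374, -0.121 and 0.48. Just outside it, at -0.998, -0.989 and -0.981, they were 0.215, 0.578 and 0.523. Of the 161, 140 entered the test. None was called (lowest adjusted p = 0.174 by limma), and 10 had an unadjusted p under 0.05. Their mean log ratio had a median of -1.14 with a median SE of 0.712, against a median SE of 0.112 over all tested features.

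The deepest of these was A7D7. Its arrays gave -3.59 and -5.36 in exposure 1, 0.875 and 0.489 in exposure 2, and -3.99 and -4.15 in exposure 3. Exposure 2 was thus above 0 on both arrays while the other 4 arrays were all below -3.5. The feature had 1 value in portal water, -0.893, and was therefore not tested. In tailings water it stood at -0.393, 1.47 and -3.14 in exposures 1, 2 and 3.

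The feature with the largest rise in both exposures 1 and 3 was P4CB5, the one feature higher by at least 1 in both. It stood at 1.46 and 0.748 on the arrays of exposure 1, at -0.313 and -0.29 on those of exposure 2, and at 1.37 and 0.944 on those of exposure 3. Its mean of 0.652 ± 0.826 (SD, n = 3; adjusted p = 0.538 by limma) did not differ from 0 by the test.

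Smaller ratios mostly kept their sign in exposure 2 among P features, of which 36.2% were above 0 there. Of 243 P features that were higher by 0.25 to 0.5, by the smaller of exposures 1 and 3, exposure 2 was above 0 in 220, with a median of 0.234. Of 229 that were lower by as much it was below 0 in 194 and above 0 in 15.3%, with a median of -0.161. Among A features, of which 65.7% were above 0 in exposure 2, 12 of the 102 higher ones of that size were opposite. Of the 147 lower ones 109 (74.1%) were above 0, a share not far from that of all A features. From 0.5 to 1, 144 of 151 lower A features were above 0 in exposure 2, and 18 of 51 lower P features. Higher features of that size were few. Exposure 2 was below 0 in 15 of 28 higher P features and in 0 of 5 higher A features. Among lower A features the share above 0 grew with each step of size up to 1.5, beyond which it was 100%.

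**Figure D3:**
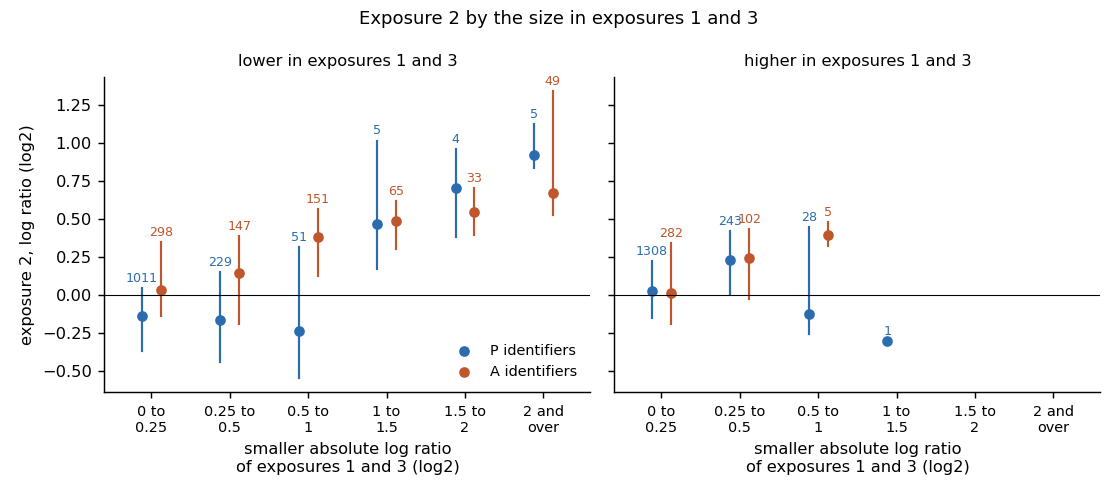
Exposure 2 log ratio (y axis, log2) for features grouped by the smaller absolute log ratio of exposures 1 and 3 (x axis), for features lower in both (left) and higher in both (right). Points are medians, bars run from the 10th to the 90th percentile and numbers count features. Lower A features move from a median of 0.0318 in the smallest group to 0.674 in the largest.

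Leaving out the other exposures in turn gave other features. In exposures 1 and 2 together 19 features were lower by at least 1, all with P identifiers from 11 numbered sets. Their medians were -2.16 and -1.77. In exposure 3 their median was -0.171, with 17 of 19 below 0, none at -1 or less, and 1 feature as high as 3.31. Of all features with 3 values, 52.5% were below 0 in exposure 3 and 47.5% above. At a size of 0.5 there were 60 such features, and exposure 3 was above 0 in 27 of them (45%), with a median of -0.041. That share was close to the 47.5% of all features. In exposures 2 and 3 together no feature was lower by 1, and 22 were lower by at least 0.5. In exposure 1 all 22 were below 0, between -0.772 and -0.17, with a median of -0.483. On the higher side, 19 features were higher by at least 0.5 in exposures 2 and 3, and 15 of them were below 0 in exposure 1 (78.9%), with a median of -0.187. Of all features with 3 values, 48.9% were below 0 in exposure 1. Past 0.5 in every exposure were 10 features on the lower side and 1 on the higher, and at 0.25 the counts were 108 and 180. With exposure 2 turned, the counts at 0.25 were 333 and 11, and 296 of those 333 were A features.

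Features with small p-values in the test against 0 were mostly of P form. An unadjusted p under 0.05 was reached by 19.3% of the 4678 tested P features and by 9.86% of the 1826 tested A features, against 16.7% of all. Among P features 398 were higher and 505 lower, with medians of 0.278 and -0.271. Over both forms, the 509 higher features had medians of 0.285, 0.227 and 0.326 in exposures 1, 2 and 3, and the 574 lower ones -0.274, -0.228 and -0.308, so exposure 2 showed the smaller size. When P features were fitted and adjusted alone, a setting chosen after the values were seen, 25 passed, 5 higher and 20 lower. A features alone gave 0 (160 at an unadjusted p under 0.05 by limma). Of the 5 calls, 3 lay in the P8 set and shared the letter A after that prefix. Unadjusted p-values under 0.05 were found for 22.8% of the 92 tested features with that letter, against 20.2% to 29.3% for the other letters of P8, which held 0 calls.

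The other waters were measured against COMBO in the same way, and the labels do not say whether they shared control RNA with upstream water. Their values are therefore set side by side. P4DB6, with upstream exposures between -0.858 and -0.669, stood at -0.334, -0.44 and -0.664 in portal water, at 0.00263, 0.163 and 0.102 in tailings water, and at 0.139, 0.162 and -0.0932 in Little Grizzly Creek water. The exposure values did not overlap, although upstream exposure 1 (-0.669) and portal exposure 3 (-0.664) were nearly equal. The upstream array at -0.436 lay above portal exposures 2 and 3. By the direct test in the same fit, tailings water was higher than upstream water by 0.881 (adjusted p = 0.00537 by limma) and Little Grizzly Creek water by 0.861 (adjusted p = 0.00658 by limma). The difference from portal water, 0.312, did not pass (adjusted p = 1 by limma). Paired by exposure number, portal water was higher by 0.335, 0.419 and 0.183, which did not pass either (adjusted p = 0.587 by limma).

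P5CG5 stood between -0.284 and -0.194 in portal water, between 0.105 and 0.189 in tailings water and between -0.0607 and 0.342 in Little Grizzly Creek water. Tailings water was higher than upstream water by 0.735 (adjusted p = 0.0107 by limma), Little Grizzly Creek water by 0.675 (adjusted p = 0.0177 by limma) and the difference from portal water, 0.356, did not pass (adjusted p = 1 by limma). Paired by number, portal water was higher by 0.316, 0.312 and 0.44 (adjusted p = 0.587 by limma). By this test all 5 calls differed from the tailings and the creek water, where 5.9% and 2.03% of all tested features did, and none from portal water, where 0% did (199 features at an unadjusted p under 0.05 by limma). Within pairs the count was also 0, with 530 of 6353 features at an unadjusted p under 0.05 by limma, and portal water was higher in all 15 pairs of the 5 calls. With upstream exposure 2 turned, 0 of the 5 differed from tailings or creek water, where 107 and 102 of all tested features did. The upstream exposures of the 5 shared a sign, so the turn itself moves their means toward 0. The 5 were chosen for low upstream values, which enter these differences too. Neither the 5 of 5 nor the 15 of 15 pairs is therefore an independent count. A p that misses the threshold does not show that upstream and portal water act alike.

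P7AA11 stood at 0.42 and 0.206 in the 2 portal exposures that had a value and between -0.172 and 0.119 in tailings water, where it was lower than in upstream water (difference -0.583, adjusted p = 0.0232 by limma). In Little Grizzly Creek water it lay between 0.0837 and 0.262 (difference -0.356, adjusted p = 0.19 by limma). P2DH11 was lower in tailings water, between -0.189 and 0.0668 (difference -0.507, adjusted p = 0.028 by limma). Both portal and upstream values of these features were above 0 in every exposure with a value. At an unadjusted p under 0.05 by limma, 509 features were higher and 574 lower in upstream water. The 509 had a median mean of 0.263 in portal water, -0.00732 in tailings water and 0.00576 in creek water. The 574 lower ones had medians of -0.246, 0.0382 and 0.0246. In portal water 95.7% of the 509 and 9.23% of the 574 were above 0, against 49.1% of all tested features. The part of a shared control or day in this was not tested.

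**Figure D4:**
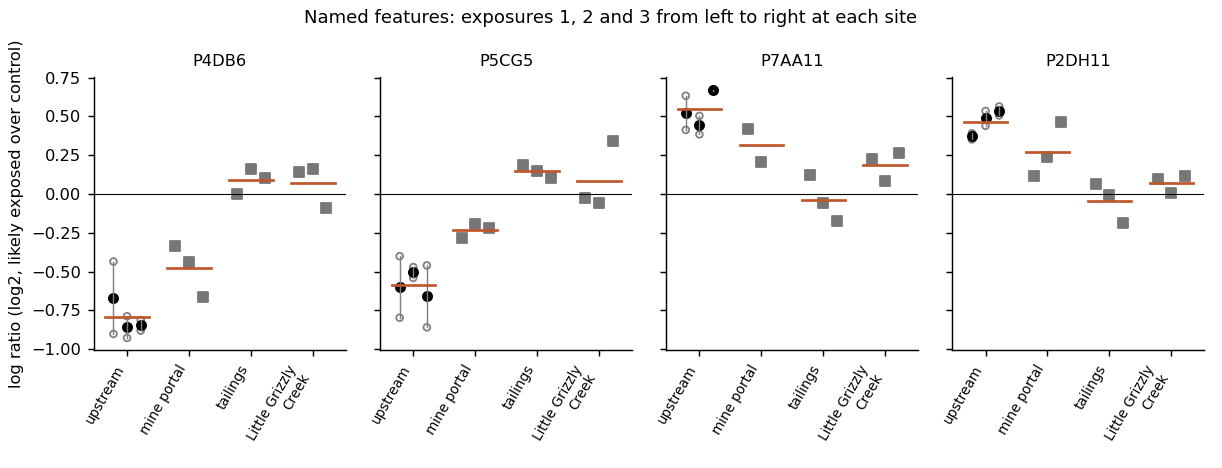
Log ratios (y axis, log2) of the 2 named falls and the 2 positive features with the smallest p, at each site. Open circles are single upstream arrays joined by a line, filled circles are upstream exposures, squares are exposures of the other sites and bars are site means. Upstream exposures of P4DB6 and P5CG5 lie below all other exposures.

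Exposures numbered 2 stood apart at other sites as well for the 161 features lower by at least 1 in upstream exposures 1 and 3. In tailings water their medians were -0.316, 0.861 and -1.91 in exposures 1, 2 and 3. In exposure 2, 153 of the 157 with a value were above 0 (97.5%), against 46.7% of all features. In Little Grizzly Creek water the medians were -0.851, 0.352 and -2.36. There 136 of 152 were above 0 in exposure 2 (89.5%), against 48.8% of all features. In portal water the medians were -1.59, -0.493 and -2.45. Exposure 2 was the least low but had 29 of 158 above 0 (18.4%), against 48.1% of all features. Most of the 161 were A features. Among all A features the shares above 0 in exposure 2 were 51%, 55% and 47.9% in portal, tailings and creek water. In exposure 3 those shares were 34.1%, 23.2% and 24.5%. The 19 features lower in upstream exposures 1 and 2 had medians of -1.95, -1.57 and 0.505 in portal water, -0.955, -1.16 and 0.0282 in tailings water, and -0.368, -1.41 and -0.00679 in Little Grizzly Creek water. In each of these waters their exposure 3 median was the highest of the 3. In upstream water the choice of the 19 on low values in exposures 1 and 2 favours that order. Only 8 of these 19 had a value in portal exposure 3, and 52 of the 161. The labels give no hybridisation day or control pool for the exposure numbers. The part of a shared control or a shared day in these values was not tested.

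**Figure D5:**
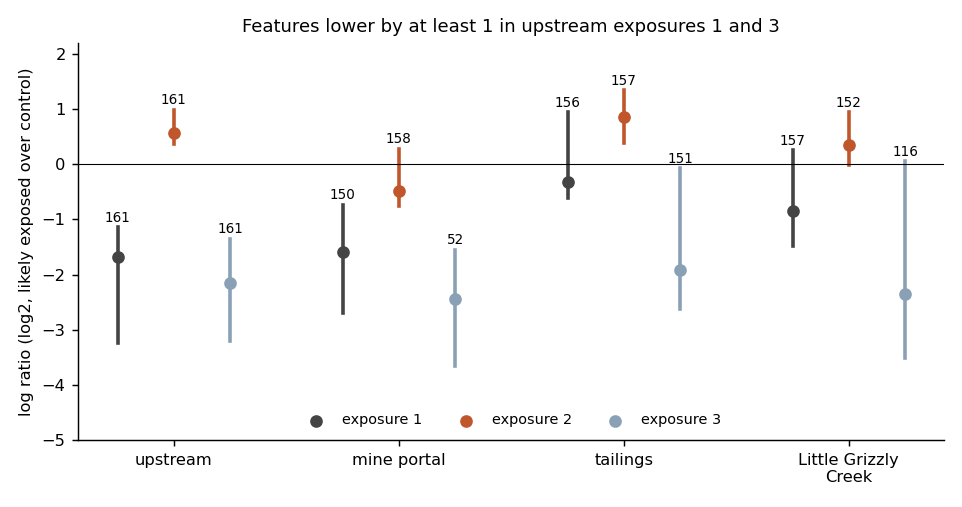
Log ratios (y axis, log2) of the 161 features lower by at least 1 in upstream exposures 1 and 3, at each site (x axis) and exposure (colour). Points are medians, bars run from the 10th to the 90th percentile and numbers count features with a value. Exposure 2 has a median above 0 in upstream (0.561), tailings (0.861) and Little Grizzly Creek water (0.352), and is the least low of the 3 in portal water (-0.493).

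For P4CB5, exposure 2 was low in upstream and portal water but not at the other sites. It stood at 3.09, 0.026 and 1.97 in portal water. Its lowest exposure was 3.71 in tailings water and 3.61 in water of Little Grizzly Creek. Tailings water was higher than upstream water by 3.06 (adjusted p = 0.028 by limma) and Little Grizzly Creek water by 3.25 (adjusted p = 0.0399 by limma). With upstream exposure 2 turned the differences were 2.86 (adjusted p = 0.0511 by limma) and 3.05 (adjusted p = 0.0388 by limma).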

How the data were processed

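The authors deposited 1 log ratio per feature and array, read here as log2; the base, the direction, background correction, normalisation and filters are not given in the sources used here. Array medians lay near 0. Per the labels, the dyes were exchanged between the 2 arrays of an exposure. Both were averaged, so dye effects cancel, and a blank on either left the exposure blank. The test took features with 2 or more exposure values per site, in limma 3.58.1 (R 4.3.3, lmFit and eBayes), over all 12 exposures with 1 mean per site, and the upstream mean was tested against 0, two-sided, with Benjamini-Hochberg adjustment at 0.05. This leaves out the spread of control animals where controls were shared. The fit was tested on simulated data. Signals per channel were not used, so brightness is unknown, and precision is limited by how few arrays there are. Blanks were treated as values left out, and no value was imputed.

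After site means were removed, exposures with the same number correlated between upstream and portal water at 0.482 to 0.812, so for these sites the numbers were taken to pair the exposures. With tailings water the values for numbers 1, 2 and 3 were -0.215, 0.571 and 0.249, and with creek water -0.0349, 0.59 and 0.638. Number 1 was below 0 for both, and there the numbers were not taken to pair exposures, although numbers 2 and 3 correlated positively. The named features were the 2 largest falls and rises among calls with 1 sign in all exposures; where no rise passed, the 2 with the smallest p; and the largest rise and fall shared by exposures 1 and 3. Planned gene lists could not be applied because identifiers matched no gene. Members, lists and tests were chosen with earlier results of these data known. Per the labels, exposures of a site are biological replicates, though the field water behind them was taken on a single occasion. The paired portal comparison and the turned differences between waters were chosen after seeing the data. Alternatives varied blanks, scaling, dye, direction, weights, blocks and exposures left out.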

Additional observations from a re-analysis of the deposited data

Results flagged for a closer look

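The following features differed between upstream water and another water by the direct limma test within the fit of all sites. P4DB6 was higher in tailings water by 0.881 and in Little Grizzly Creek water by 0.861, and P5CG5 by 0.735 and 0.675. P7AA11 and P2DH11 were lower in tailings than in upstream water, by differences of -0.583 and -0.507. P4CB5 was higher in tailings water by 3.06 and in Little Grizzly Creek water by 3.25. All 5 features were chosen on their upstream values, which also enter these differences. With the sign of upstream exposure 2 turned, the difference of P4CB5 from Little Grizzly Creek water was the one that passed. With 3 exposures a site, single exposures that lie far from the others were not tested for.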

How the results depend on the processing

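The count of 5 features against control was also 5 with a robust eBayes and 4 with blanks limited in upstream water alone. It was 0 with upstream exposures fitted alone, 0 with exposure 2 turned and 0 to 0 without 1 exposure, 1 when 1 array of an exposure was enough, and 2 with the exposure number as a random replicate block. It rose to 18 where no blank exposure was allowed, 210 after quantile normalisation, 116 at equal spread, 126 when 24 single arrays were fitted with a dye term, 458 with the replicate block and 635 with exposure weights. P features alone gave 25 and A features alone 0. The split of higher to lower calls was 0 to 5 as reported, 127 to 83 after quantile normalisation and 65 to 61 with a dye term, so no direction held the majority throughout. The causes were not tested, except that leaving out an exposure removes samples. P4DB6 passed in 11 and P5CG5 in 9 of 16 alternatives, P7AA11 in 6 of 15 and P2DH11 in 7 of 16, and none changed sign.

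The count of features that differed between portal and upstream water was 0 with and without the replicate block. The median absolute mean ratio, 0.138, moved to 0.102 with exposure 2 turned and lay between 0.131 and 0.167 without 1 exposure. The correlation of exposures 1 and 2, -0.0957, was 0.0734 on second arrays only, 0.0957 with exposure 2 turned, 0.329 among P and -0.51 among A features. That of exposures 1 and 3, 0.569, was 0.53 and 0.541 on first and second arrays, 0.145 among P and 0.825 among A features. That of exposures 2 and 3, -0.255, was -0.126 on second arrays, 0.255 with exposure 2 turned, 0.114 among P and -0.48 among A features. The share above 0 in exposure 2 of features lower in exposures 1 and 3 was 99.4%, 88.7% at a size of 0.5, 100% at 1.5, 100% on first arrays, 100% at equal spread and 0.621% with exposure 2 turned. The limit throughout is 3 exposures and the blanks, most frequent among A features in exposure 3.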
